A study of Mus musculus with 4 samples.

Results

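Chromatin accessibility was examined around the odorant and pheromone receptor genes of the mouse, in immortalized mouse embryonic fibroblasts (imMEFs) with and without HAT1, the histone acetyltransferase that acetylates newly made histone H4. An ATAC-Seq site was taken as near a receptor gene if it lay on an autosome and overlapped, or was within 100 kb of, the body of a GENCODE gene whose symbol starts with Olfr (odorant receptors), Vmn1r or Vmn2r (the V1R and V2R families of vomeronasal receptors). By this rule 1050 of the 82325 sites of the experiment were near a receptor gene, and 79415 autosomal sites were farther away. The 1960 autosomal receptor genes comprised 1399 Olfr, 326 Vmn1r and 235 Vmn2r genes, of which 1457 were annotated as protein coding and the others mostly as pseudogenes.

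The experiment held 4 libraries on a C57bl6 background. There were 2 libraries from HAT1 WT (Hat1+/+) imMEF lines (WT1 and WT2) and 2 from HAT1 KO (Hat1-/-) lines (KO1 and KO2), each from a separate line, so the spread within a genotype was a spread between lines. The titles of WT1 and KO2 share a line number, and those of WT2 and KO1 do not. The lines were made from embryonic fibroblasts with the SV40 T antigen and were grown in the same medium, and the labels name no treatment. A value is the normalized read count of a site, as deposited. The step between low values placed the reads inside sites at about 9420000 in WT1, 11400000 in WT2, 7830000 in KO1 and 5650000 in KO2, so both KO libraries were shallower than both WT libraries. The promoter site of Hat1 had values of 390 and 384 in WT and 438 and 368 in KO. ATAC-Seq reads at a promoter do not check the loss of the gene product.

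Odorant receptors detect volatile molecules in the olfactory epithelium and vomeronasal receptors detect pheromones in the vomeronasal organ. Each sensory neuron expresses a very small part of the repertoire, and the other receptor genes are kept in compact heterochromatin. The genes arose by repeated local duplication and stand in long clusters, often AT-rich, that are silent outside the sensory epithelia, fibroblasts included. Most odorant receptor genes have their whole coding sequence in 1 exon, and their promoters are known for binding sites of EBF and homeodomain factors.

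The sequences of 8 sites are given first, because the results return to them: 3 are the sites near receptor genes that passed the test of KO against WT, and 5 are the sites with the highest mean values at a receptor gene itself. Each is the central 300 bases of the site on the plus strand of mm10 (GRCm38), 5′ to 3′, in lower case, with every match to TGANTCA, the AP-1 motif, in capitals. None of the first 3 windows held that motif, nor CNAGGGGGC (the core of the CTCF motif), TCCCNNGGG (Olf/EBF) or TAATTA (homeodomain) on either strand. Of the 8 strongest receptor sites named in what follows, 5 held the AP-1 motif and 3 (Vmn1r42, Olfr1372-ps1 and Olfr455) did not.
Olfr275 site, chr4:52797538-52797837: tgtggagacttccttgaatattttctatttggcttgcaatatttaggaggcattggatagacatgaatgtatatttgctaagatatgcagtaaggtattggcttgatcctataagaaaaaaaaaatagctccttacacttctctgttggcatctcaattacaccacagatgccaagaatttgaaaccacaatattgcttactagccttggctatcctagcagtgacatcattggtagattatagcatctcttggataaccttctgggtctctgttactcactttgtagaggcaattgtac
Zik1 promoter near Vmn1r68, chr7:10495151-10495450: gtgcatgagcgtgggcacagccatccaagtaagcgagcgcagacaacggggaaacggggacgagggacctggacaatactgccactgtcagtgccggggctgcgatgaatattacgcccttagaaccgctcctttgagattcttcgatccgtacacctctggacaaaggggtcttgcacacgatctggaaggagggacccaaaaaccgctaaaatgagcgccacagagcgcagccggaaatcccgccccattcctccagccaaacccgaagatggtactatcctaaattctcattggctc
Vmn2r90 site, chr17:17791490-17791789: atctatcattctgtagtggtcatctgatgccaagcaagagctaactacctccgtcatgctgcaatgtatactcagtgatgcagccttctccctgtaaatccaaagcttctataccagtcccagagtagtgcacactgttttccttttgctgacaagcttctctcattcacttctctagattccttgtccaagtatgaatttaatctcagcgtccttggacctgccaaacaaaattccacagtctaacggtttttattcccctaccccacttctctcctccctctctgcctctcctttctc
Vmn1r40 site, chr6:89706646-89706945: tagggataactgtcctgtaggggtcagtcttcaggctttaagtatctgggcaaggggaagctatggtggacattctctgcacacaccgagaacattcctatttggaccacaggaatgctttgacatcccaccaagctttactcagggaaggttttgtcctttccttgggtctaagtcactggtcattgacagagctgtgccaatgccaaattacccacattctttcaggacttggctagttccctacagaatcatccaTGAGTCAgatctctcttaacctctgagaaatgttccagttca
Vmn1r42 site, chr6:89867664-89867963: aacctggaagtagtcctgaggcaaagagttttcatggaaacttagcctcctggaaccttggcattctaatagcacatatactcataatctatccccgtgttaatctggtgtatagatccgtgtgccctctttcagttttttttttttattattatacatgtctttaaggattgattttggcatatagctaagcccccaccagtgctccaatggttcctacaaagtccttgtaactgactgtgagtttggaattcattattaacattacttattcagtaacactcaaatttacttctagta
Olfr1438-ps1 site, chr19:12336492-12336791: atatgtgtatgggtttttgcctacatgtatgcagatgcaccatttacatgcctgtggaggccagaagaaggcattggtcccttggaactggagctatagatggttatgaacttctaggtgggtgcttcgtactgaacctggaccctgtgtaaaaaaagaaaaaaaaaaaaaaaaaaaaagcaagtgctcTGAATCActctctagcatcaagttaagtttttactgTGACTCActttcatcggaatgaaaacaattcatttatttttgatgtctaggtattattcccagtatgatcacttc
Olfr456 site, chr6:42489947-42490246: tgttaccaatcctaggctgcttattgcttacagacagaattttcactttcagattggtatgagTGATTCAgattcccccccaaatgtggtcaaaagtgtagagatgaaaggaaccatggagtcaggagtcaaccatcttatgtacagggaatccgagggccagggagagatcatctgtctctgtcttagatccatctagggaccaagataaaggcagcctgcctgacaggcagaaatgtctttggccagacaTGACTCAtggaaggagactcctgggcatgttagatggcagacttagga
Vmn1r44 site, chr6:89880975-89881274: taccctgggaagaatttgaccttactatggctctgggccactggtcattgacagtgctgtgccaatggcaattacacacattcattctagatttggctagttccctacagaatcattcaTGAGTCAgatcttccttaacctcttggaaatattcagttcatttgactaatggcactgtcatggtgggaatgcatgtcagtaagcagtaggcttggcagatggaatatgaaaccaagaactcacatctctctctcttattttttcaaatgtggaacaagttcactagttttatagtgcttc

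Accessible sites were sparse where receptor genes were dense. The density was 3.84 sites per Mb of known sequence within receptor gene bodies (56 sites in 14.6 Mb), 5.55 per Mb at up to 10 kb from a body (142 sites), 11.3 per Mb at 10 to 25 kb (149 sites) and 22.4 per Mb at 25 to 50 kb (224 sites). At 50 to 100 kb it was 35.1 per Mb (479 sites), close to the 34.2 per Mb of the autosomes beyond 100 kb. Within 100 kb as a whole the density was 13.6 sites per Mb, and it was below that of the other sequence of the same chromosome on 18 of the 19 autosomes. The exception was chr15, with 52.3 against 38.0 sites per Mb and only 10 receptor genes.

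**Figure D1:**
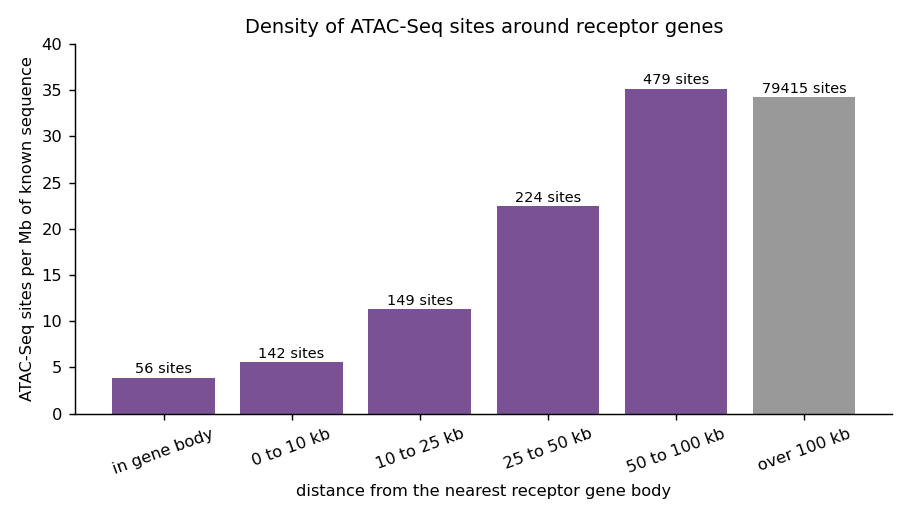
ATAC-Seq sites per Mb of known sequence (vertical axis, from 0) by distance from the nearest receptor gene body (horizontal axis), with the number of sites above each bar. The bars climb from 3.84 sites per Mb inside gene bodies to 35.1 at 50 to 100 kb, next to 34.2 for autosomal sequence farther away (grey).

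Receptor clusters hold many near-identical copies, and how reads with several matches were treated is not given in the sources used here. A 32-base stretch read every 1 kb was found elsewhere in the genome at 26.5% of positions in receptor bodies, 37.3% at up to 10 kb, 44.5% at 10 to 25 kb, 36.7% at 25 to 50 kb and 29.4% at 50 to 100 kb, against 14.7% of positions beyond 100 kb. With all sites kept and only sequence found once counted in the length, the densities were 5.23, 8.85, 20.3, 35.5 and 49.8 sites per Mb, against 40.2 beyond 100 kb. The order of the distances was the same with this length, though sites in repeated sequence were not taken out. The bodies, with the fewest sites, held less repeated sequence than the neighbouring distances. No test was made of the density, since the sites are 1 merged set for all libraries.

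Counted by gene, 45 of the 1960 receptor genes (2.30%, 95% Wilson interval 1.72 to 3.06%) had a site overlapping the gene body, against 14800 of 19325 other autosomal protein-coding genes (76.6%). For 61 receptor genes (3.11%, interval 2.43 to 3.98%) a site lay within 3 kb of an annotated start, against 74.3% of the other genes. No site was found within 100 kb for 1215 receptor genes, 62.0% of them, while this held for 5.16% of the other genes. A site in the body was found for 2.14% of Olfr, 3.37% of Vmn1r and 1.70% of Vmn2r genes, shares whose intervals overlap (1.51 to 3.04%, 1.89 to 5.94% and 0.664 to 4.29%). The intervals cover counting error only.

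Sites at the starts of other genes were the largest class among the sites near receptor genes. By annotation 483 of the 1050 (46.0%) lay within 3 kb of the start of a gene that is no receptor, against 35.1% of the other autosomal sites, 274 were intergenic, 186 intronic and 46 exonic, and 61 (5.81%) lay within 3 kb of a receptor gene's start only. The level over all classes together fell towards the receptor genes, and so did the share of other genes' promoter sites. That share was 53.0% at 10 to 25 kb, 28.2% at up to 10 kb and 12.5% in receptor bodies. Those promoter sites had a median value of 112, against 38.0 for receptor promoter sites and 42.6 for intergenic sites. The level by distance within a class was not computed. The median value over the 4 libraries was 30.8 for sites in receptor bodies, 40.6 at up to 10 kb and between 66.0 and 67.3 at the 3 longer distances, against 52.3 beyond 100 kb. Sites inside a cluster's span lay in sequence of lower GC content (median 42.2% over 100 kb) than sites on the flanks (44.3%) and all autosomal sites (44.4%). The AP-1 motif stood in the central 300 bases of 38 of the 79 sites at a receptor body or start and of no other gene's start (48.1%), close to the 45.9% of all autosomal sites away from other genes' starts. For the Olf/EBF motif the shares were 3.80% (3 sites) and 5.06%, for the homeodomain motif 2.53% (2 sites) and 5.73%, and for the CTCF core 1.27% (1 site) and 2.08%.

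The 8 strongest sites at a receptor body or start, and away from other genes' starts, had values between 93 and 296, and 5 of them lay on chr6. The Vmn1r40 site (chr6:89706508-89707083, 457 bases from the gene) had values of 225 and 210 in WT and 250 and 296 in KO. The Vmn1r44 site (chr6:89880801-89881449, 2.21 kb from the gene) had 160 and 206 in WT and 207 and 212 in KO. In the 2 windows printed for Vmn1r40 and Vmn1r44, a local alignment matched 135 of 162 columns (83.3%), the AP-1 match included. It was the highest-scoring of the 55 pairs among the 11 windows aligned, next to a score of 19 against 106. Of the 11 stretches of 32 bases read across the Vmn1r40 site, 2 recur elsewhere in the genome, and none of those across the Vmn1r44 site do.

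Between them, the Vmn1r42 site (chr6:89867254-89868373), which overlaps the gene body, had values of 195 and 157 in WT and 255 and 212 in KO. At all 3 Vmn1r sites both KO libraries were above both WT libraries, at Vmn1r44 only just, and each difference was under 1.5-fold. Over all sites 14.6% had this order, and 19.6% of all sites at or above the overall median value, as these 3 are. The site 372 bases from the pseudogene Olfr1438-ps1 (chr19:12336282-12337002) had 166 and 149 in WT and 223 and 268 in KO, a log2 difference of 0.63 ± 0.21 (SE). The Olfr432 site (chr1:174048842-174049366), which overlaps that gene's start, had 93 and 104 in WT and 159 and 114 in KO. At Olfr456 and Olfr455, both on chr6, the libraries of the 2 genotypes overlapped, with 125 and 246 in WT against 168 and 262 in KO, and 101 and 147 against 115 and 155. The site over the pseudogene Olfr1372-ps1 (chr11:52167077-52168668) was the only one of the 8 with KO below WT, at 191 and 135 against 119 and 120. Of the 11 stretches of 32 bases read across it, 6 recur elsewhere in the genome. None of the 8 met the call rule given next.

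**Figure D2:**
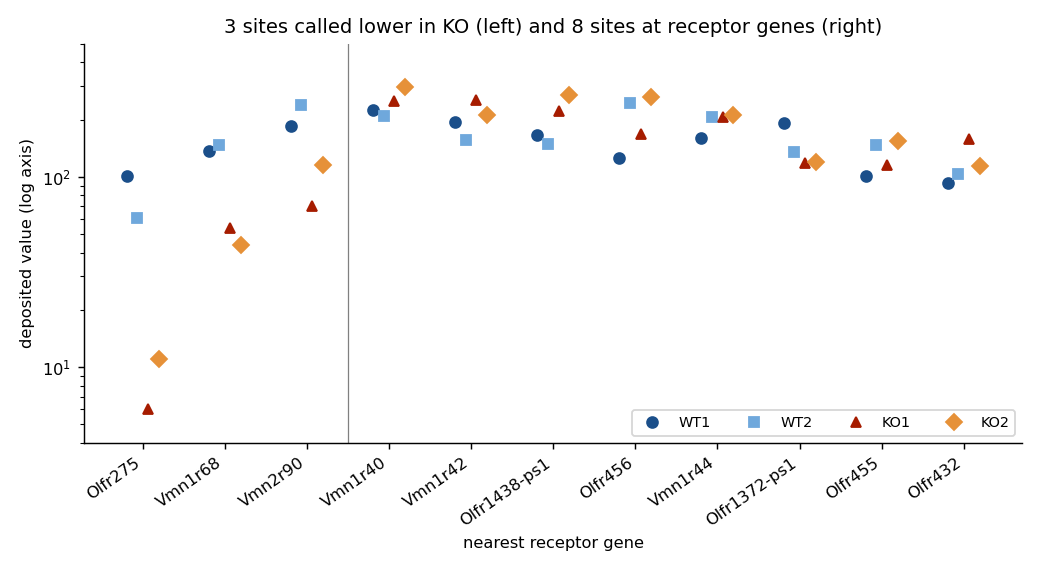
Deposited values (vertical log axis) of the 4 libraries at the 3 sites called lower in KO, left of the line, and the 8 strongest sites at receptor genes, right of it, named by the nearest receptor gene. At the 3 sites on the left both KO libraries lie below both WT libraries, and at the Olfr275 site KO is at 6 and 11 against 101 and 61.

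The comparison of genotypes asks which sites gained or lost accessibility without HAT1. Sites were called at limma p under 0.01 with a log2 difference (KO minus WT, on log2(value + 1)) of at least 1 in size. Across all 82325 sites 249 were called lower (0.302%) and 58 higher (0.0705%), and near receptor genes 3 were called lower (0.286% of 1050) and 0 higher. The shares near receptor genes were thus near or under the background. With the Benjamini-Hochberg adjustment over all sites the smallest limma adjusted p near receptor genes was 1, and 29 sites near receptor genes had an unadjusted p under 0.05 (2.76%, against 3.14% beyond 100 kb).

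The largest fall was at an intergenic site on chr4 (chr4:52797442-52797934), 16.7 kb from Olfr275, an odorant receptor gene. Its values were 101 and 61 in WT and 6 and 11 in KO, a log2 difference of -3.12 ± 0.51 (SE; limma adjusted p = 1), or 8.68-fold lower on this scale. The nearest start of another gene, Gm12482, was 23.6 kb away. In the Zik1 promoter site, which lies 11.8 kb from Vmn1r68 (chr7:10494955-10495647), the values were 137 and 147 in WT and 54 and 44 in KO, a log2 difference of -1.52 ± 0.29 (SE; limma adjusted p = 1). Zik1 encodes a zinc finger protein, and the site covers its start. The third site was intergenic, 56.0 kb from Vmn2r90 and 35 kb from the start of Spaca6, the nearest protein-coding gene (chr17:17791121-17792159), with 185 and 240 in WT and 70 and 116 in KO and a difference of -1.22 ± 0.32 (SE; limma adjusted p = 1). At all 3 the genotypes did not overlap, and none of the 3 held sequence that recurs elsewhere in the windows read. Because of this separation, leaving out 1 library could not change the direction of a difference at these sites. With 3 libraries in the fit, several calls were lost. Over all sites 249 were called lower with 4 libraries, and 20, 14, 220 and 548 without WT1, WT2, KO1 and KO2. The Olfr275 site was no longer called without WT1, WT2 or KO1, with differences of -2.76, -3.48 and -2.73, and the Zik1 site without WT1, WT2 or KO2, with differences of -1.57, -1.47 and -1.38. The Vmn2r90 site lost its call whichever of the 4 libraries was left out, and its difference ranged from -1.58 to -0.86.

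**Figure D3:**
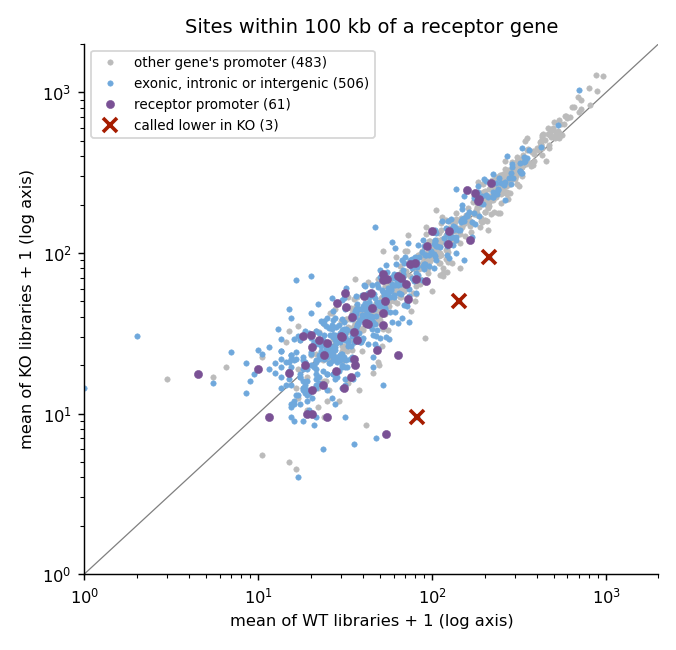
Mean of the KO libraries against mean of the WT libraries (value + 1, both axes log) for the 1050 sites within 100 kb of a receptor gene, coloured by annotation, with the line of equality. The points lie along the line, and the 3 called sites (crosses) lie below it.

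As a whole the sites near receptor genes were centred on no difference. Their median log2 difference was 0.021, against 0.0076 for the other autosomal sites, and the SD over sites was 0.52 against 0.53. Both KO libraries were below both WT libraries at 149 sites (14.2%) and above them at 168 (16.0%), where all sites gave 14.3% and 14.6%. Neither share is far from its background. The balance moved with the scaling: with equal library totals 199 sites were below (19.0%, as were 19.0% of all sites) and 118 above (11.2%, against 10.9%). Among sites reaching the median value of 52 it leaned the other way, with 53 below (9.35%, against 10.2%) and 122 above (21.5%, against 19.6%). A difference of at least 2-fold in either direction was seen at 6.29% of the sites near receptor genes (42 lower and 24 higher) and at 6.42% of all sites. The KO libraries did not move together: the median of KO1 minus the WT mean was -0.024 and that of KO2 0.073, on the log2 scale.

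Closest to the receptor genes the picture differed by library. For the 56 sites in receptor bodies, KO1 was at a median of -0.20 against the WT mean and KO2 at 0.083. Both KO libraries were below both WT libraries at 14 of the 56 (25%, against 14.3% of all sites) and above at 7 (12.5%, against 14.6%). Among the 61 receptor promoter sites the counts were 16 below (26.2%) and 9 above (14.8%). These sets share sites, as 55.4% of the 56 sites in receptor bodies were also receptor promoter sites. Over the 79 sites at a receptor body or start, and away from other genes' starts, 19 were below (24.1%) and 11 above (13.9%). Of the 16 receptor promoter sites below, 15 lay at Olfr genes and 1 at a Vmn1r gene, in 12 clusters on 9 chromosomes. Olfr genes also had most of the 61 receptor promoter sites, with 48 at Olfr, 11 at Vmn1r and 2 at Vmn2r genes. They were weak, with a median value of 28.8 and a range from 13.5 to 141, and none was called. The shares over all sites moved with strength: at or above the overall median value, 10.2% of all sites were below and 19.6% above. Sites in receptor bodies and receptor promoter sites had median values of 30.8 and 38, under the overall median. All sites are therefore not a background matched in strength, and the shares among equally weak sites were not computed. The difference from all sites was not tested.

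Examples are the Olfr983 site, with 59 and 66 in WT and 11 and 33 in KO, and the Olfr71 site, with 34 and 36 against 20 and 18. At Olfr654 the values were 40 and 54 against 15 and 33, and at Olfr1390 they were 79 and 80 against 68 and 68. In each of these 4 the higher KO library stayed under the lower WT library, and at Olfr1390 by little. The opposite order was found at Vmn1r40, Vmn1r42 and Vmn1r44 above, and at Olfr1440, with 34 and 27 in WT and 46 and 65 in KO.

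Receptor genes separated by at most 1 Mb were joined into 88 clusters, numbered along each chromosome, of which 32 were of 1 gene. The 34 clusters of 10 or more genes held 1826 of the 1960 genes, and from their first to their last gene they spanned 61.1 Mb with 407 sites, or 6.66 sites per Mb. The density inside was below the 34.2 per Mb of the autosomes beyond 100 kb in all 34, with a median of 4.29 and a range of 0 to 30.9. Within these spans 192 of the 407 sites (47.2%) were promoters of other genes. For the difference between genotypes the text describes the 38 clusters with 10 or more sites within 100 kb, which hold 852 of the 1050 sites. A cluster's value is the mean log2(value + 1) over its sites in each library. With 2 against 2 libraries an exact permutation test cannot give a two-sided p below 0.333, so no p is given for a cluster.

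**Figure D4:**
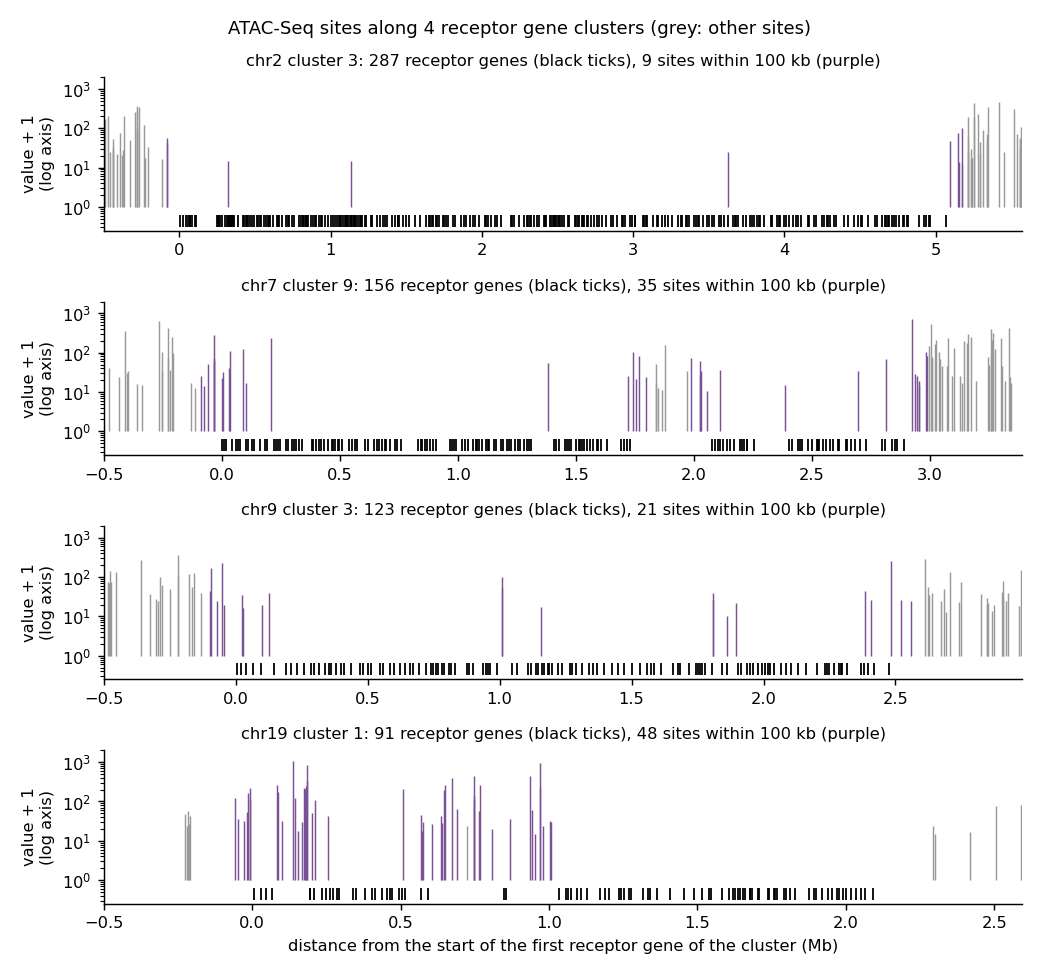
Sites along 4 clusters, as value + 1 averaged over the libraries (vertical log axis), by distance from the start of the cluster's first receptor gene (horizontal axis, Mb); black ticks are receptor genes, purple bars sites within 100 kb of one and grey bars other sites. The chr2 cluster of 287 genes has 3 sites between its ends, and the sites resume on both sides of it.

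In 33 of the 38 clusters the KO and WT libraries overlapped. The differences ran from -0.43 to 0.29 with a median of -0.0037, and 32 were under 0.2 in size. The median SD within a genotype was 0.17, so most of these differences were no larger than the spread between lines. Both KO libraries were below both WT libraries in 1 cluster (chr7 cluster 9) and above in 4 (chr1 cluster 3, chr7 cluster 10, chr13 cluster 1 and chr19 cluster 1).

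**Figure D5:**
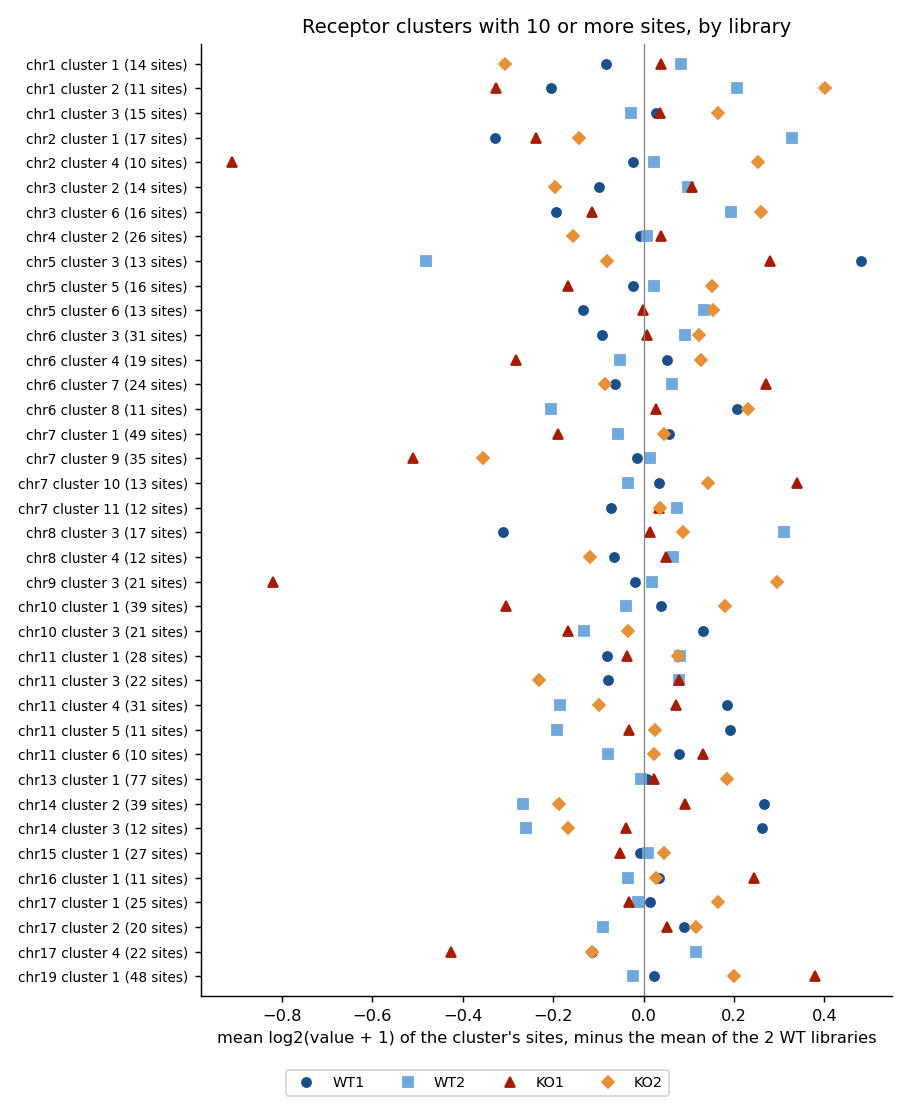
Mean log2(value + 1) of the sites of each of the 38 clusters with 10 or more sites, by library, relative to the mean of the 2 WT libraries (horizontal axis). KO1 lies far below the other libraries at chr2 cluster 4 and chr9 cluster 3, and both KO libraries lie below WT at chr7 cluster 9 and above WT at chr19 cluster 1.

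On chr1, 35 receptor genes had 40 sites. Cluster 3 there is the surroundings of a lone Vmn1r gene, with cluster means of 5.66 and 5.60 in WT and 5.67 and 5.80 in KO over 15 sites. The difference of 0.10 came from KO2, as KO1 and WT1 were nearly level. In cluster 2, of 26 Olfr genes, KO1 was at 5.00 and KO2 at 5.73, around WT values of 5.12 and 5.54.

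On chr2, 372 receptor genes, 370 of them Olfr, had 42 sites, or 5.21 per Mb against 38.1 for the rest of the chromosome. The 287 genes of cluster 3 (chr2:85330779-90403897) form the longest array, from Olfr987 to Olfr1274-ps. It had 3 sites inside, 0.59 per Mb: at Olfr1003-ps1 (15 and 3 in WT, 27 and 9 in KO), Olfr1069-ps1 (20 and 16, then 6 and 12) and Olfr1212 (24 and 14, then 27 and 33). All 3 lie under the median of 52 over all sites, and they moved in different directions. Cluster 4, of 46 genes, had means of 5.92 and 5.97 in WT, 5.04 in KO1 and 6.20 in KO2. The KO1 value there rested on weak intergenic sites, such as one 35.1 kb from Olfr1319-ps1 with 47 and 48 in WT, 4 in KO1 and 60 in KO2. A site 4.03 kb from Olfr1318 had 37 and 39 in WT, 6 in KO1 and 48 in KO2.

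On chr3 to chr5 the libraries of the genotypes overlapped in every cluster with 10 or more sites. Some smaller groups there did not overlap, with KO below WT in all but chr4 cluster 4. At the 3 sites around Olfr266 on chr3 the means were 4.41 and 5.92 in WT and 2.30 and 4.01 in KO. At the 4 around Olfr1402 on chr3 they were 5.28 and 5.25 in WT and 5.00 and 4.97 in KO. The 8 around Olfr719-ps on chr5 had 5.66 and 5.83 in WT and 5.54 and 5.40 in KO. The 7 around the 15 Olfr genes of chr4 cluster 5 had 5.07 and 5.17 in WT and 4.90 and 4.59 in KO. The 6 around the lone Olfr gene of chr4 cluster 4 had 5.53 and 5.55 in WT and 5.95 and 5.60 in KO. The 6 Olfr genes of chr4 cluster 3, from Olfr275 to Olfr270, had only 3 sites, with the called site above among them, with means of 6.57 and 6.40 in WT and 5.04 and 5.60 in KO. The promoter of Nipsnap3b in the same cluster was not lower, with 291 and 337 in WT and 336 and 429 in KO. For chr5 cluster 3, of 12 Vmn2r genes, the WT lines themselves differed by more than in any other of the 38 clusters, at 6.13 and 5.17. A site 7.11 kb from Vmn2r-ps24 elsewhere on chr5 (chr5:138524101-138524972) had 84 and 36 in WT and 102 and 111 in KO, and 6 of the 11 stretches read across it recur in the genome. The Crlf2 promoter in cluster 3 was the strongest of all sites near receptor genes, with 992 and 916 in WT and 1021 and 1507 in KO. Crlf2 encodes a cytokine receptor subunit.

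On chr6, 128 receptor genes, of which 79 are Vmn1r, had 101 sites. Cluster 7, of 23 Vmn1r genes, was one of the more open receptor clusters, with 13 sites inside and 22.7 per Mb, among them the Vmn1r40, Vmn1r42 and Vmn1r44 sites; its means were 5.65 and 5.78 in WT and 5.98 and 5.63 in KO. Cluster 3, of 28 Olfr genes with Olfr455 and Olfr456, was at 5.85 and 6.03 in WT and 5.95 and 6.06 in KO. Cluster 4, of 44 Vmn1r genes, had 7 sites inside, at 4.43 per Mb.

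On chr7, the chromosome with most receptor genes (533: 293 Olfr, 142 Vmn1r and 98 Vmn2r), there were 130 sites, or 6.10 per Mb against 37.4 for the rest. Cluster 3, of 78 Vmn1r genes, had a density of 0.26 per Mb inside. Cluster 1, of 114 genes of all 3 families, is interleaved with zinc finger genes, and 34 of its 49 sites were promoters of other genes. Its means were 6.35 and 6.24 in WT and 6.11 and 6.34 in KO. Over its 19 zinc finger gene promoters, counted with the Zscan, Zbtb and similar symbols, 4 had both KO libraries below WT and 3 above. Among promoter sites far from receptor genes 14.5% were below and 16.9% above. Zfp773 was at 89 and 90 in WT and 12 and 45 in KO (log2 difference -1.89 ± 0.61, SE). A Zscan18 promoter site had 54 and 48 in WT and 66 and 138 in KO, and another had 69 and 54 against 37 and 59. None of these met the call rule.

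Cluster 9 of chr7 (chr7:102476579-105369355) holds 156 Olfr genes, the beta-globin genes and a block of Trim genes, a family of ubiquitin ligases. It was the lowest of the 38, with means of 5.64 and 5.67 in WT and 5.14 and 5.30 in KO, a difference of -0.43 with a within-genotype SD of 0.08. The mean difference over the chr7 sites away from receptor genes was -0.018. Of its 35 sites 17 were below in both KO libraries and 3 above, where all sites gave 14.3% and 14.6%, and 0 were called. The low values were concentrated in the 8 sites from Trim30a to Olfr684, where 7 were below and the median difference was -1.24, while the other 27 sites had 10 below, 3 above and a median of -0.14; this stretch was chosen after its values were seen. The promoter of Trim30d had 47 and 49 in WT and 11 and 29 in KO. At Trim30a, 78 and 81 in WT stood against 24 in KO1 and 99 in KO2. The strongest promoter site of Rrm1, which encodes a subunit of ribonucleotide reductase, and that of Fam160a2, at the ends of the cluster, were above WT. The Rrm1 site had 237 and 271 in WT and 278 and 343 in KO. The weaker Rrm1 promoter sites overlapped between genotypes, with 40 and 69 in WT against 68 and 59 in KO, and 71 and 68 against 53 and 99. The site nearest the beta-globin genes, 7.68 kb from Hbb-y, had 101 and 44 in WT and 55 and 17 in KO and did not separate the genotypes. The drop rested on weak sites: with only sites whose value reached the overall median of 52, the cluster's difference was -0.11.

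Cluster 10 of chr7, of 80 Olfr genes, was at 5.32 and 5.25 in WT and 5.63 and 5.43 in KO, a difference of 0.24 over 13 sites. Only 4 of the 13 lay inside the cluster. With only sites reaching the median of 52 the difference was 0.046.

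On chr8, 8 receptor genes had 43 sites, mostly of other genes. The site near Olfr372 (chr8:72019738-72020804) rose most among sites at or above the median, with 5 and 87 in WT and 167 and 120 in KO, a log2 difference of 2.63 ± 1.15 (SE). The WT lines differed there by more than WT2 differed from KO2, and 4 of the 11 stretches of 32 bases read across it recur in the genome.

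On chr9, 173 Olfr genes had 27 sites, or 5.78 per Mb against 38.7 for the rest. Cluster 3, of 123 genes (chr9:37708964-40190134), had means of 5.18 and 5.22 in WT, 4.38 in KO1 and 5.49 in KO2. KO1 was the lowest library at 14 of its 21 sites. The Olfr983 promoter was lower in both KO lines, as given above, and so was the Scn3b promoter, of a sodium channel subunit gene, with 35 and 29 in WT and 18 and 11 in KO. The promoters of Tbrg1 and Zfp202 overlapped between genotypes, and Zfp202 had 239 and 256 in WT and 256 and 244 in KO.

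On chr10 and chr11 the genotypes overlapped in every cluster with 10 or more sites. Over the 9 sites of chr11 cluster 2, of 8 Olfr genes, they did not, with means of 6.14 and 6.01 in WT and 5.85 and 5.92 in KO. For chr10 cluster 1, of 15 receptor genes among many others, the density inside was 25.6 per Mb and the means were 6.14 and 6.07 in WT and 5.80 and 6.29 in KO. Cluster 3, of 71 genes, had 3 sites inside, and on its flank a site 7.94 kb from Olfr9 (chr10:128980744-128981496) had 56 and 59 in WT, 70 in KO1 and 161 in KO2. The 115 sites of chr11 gave 29.3 per Mb against 47.0 for the rest of that chromosome, and its 5 clusters with 10 or more sites all had differences between -0.08 and 0.08. The chr11 cluster 5, of 44 Olfr genes, had no site between its ends.

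On chr13, 77 of the 87 sites fell in cluster 1 (chr13:21069334-23269474), where 13 Olfr and 70 Vmn1r genes lie around the large histone gene cluster. Its inside was the densest of the clusters of 10 or more genes, at 30.9 sites per Mb, and its means were 7.06 and 7.05 in WT and 7.08 and 7.24 in KO. The difference of 0.10 came mainly from KO2. Of the 13 sites at a start of a replication-dependent histone gene, with Hist1 symbols, 9 were above WT in both KO libraries and 0 below, with a median of 0.24 and no call, where 16.9% of other autosomal promoter sites were above. At 10 of the 13, between 3 and 6 of the 11 stretches of 32 bases read across the site recur in the genome. The Hist1h2aj site had 486 and 521 in WT and 557 and 749 in KO.

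On chr14, 48 receptor genes had 68 sites. In cluster 2, of 37 Olfr and 5 Vmn2r genes, the means were 6.46 and 5.93 in WT and 6.28 and 6.01 in KO. The WT lines there differed by more than the genotypes. The site in Arhgef40, 46.5 kb from Olfr221, had 137 and 121 in WT, 29 in KO1 and 143 in KO2. The other sites of chr14 had a median of -0.18, lower than those of any other autosome.

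On chr12 and chr18, with 1 and 3 receptor genes, no site was near a receptor gene. The 10 genes of chr15 had 27 sites, at 6.19 and 6.21 in WT and 6.15 and 6.25 in KO, the smallest spread within genotypes of the 38 clusters. On chr16, 46 genes had 21 sites, and cluster 3, of 8 Olfr genes, and the inside of cluster 4, of 32, had none. The 2 sites around Olfr19 had means of 6.35 and 5.89 in WT and 5.63 and 5.66 in KO.

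On chr17, 139 genes had 73 sites, or 10.4 per Mb against 38.7. Cluster 1, of 24 Vmn1r and 36 Vmn2r genes, was at 6.15 and 6.13 in WT and 6.11 and 6.30 in KO, with the called site near Vmn2r90 and, 78.1 kb from the same gene, the Lnpep promoter, with 894 and 879 in WT and 956 and 1087 in KO. Cluster 4 (chr17:37083871-38336643), of 58 Olfr genes next to the major histocompatibility complex, was at 6.15 and 6.38 in WT and 5.84 and 6.15 in KO. Of its 22 sites 8 were below and 3 above, where all sites gave 14.3% and 14.6%. Receptor promoters made up 9 of the 22, the most of any cluster. At 2 sites over Olfr91 the values were 25 and 41 in WT and 18 and 14 in KO, and 17 and 89 in WT and 4 and 9 in KO. Next to them, the site 182 bases from Olfr90 had the reverse order, with 48 and 39 in WT and 59 and 51 in KO.

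On chr19, all 91 Olfr genes form cluster 1 (chr19:11826803-13921866), with 48 sites and 19.6 per Mb inside. It was the highest of the 38, with means of 6.40 and 6.36 in WT and 6.76 and 6.58 in KO, a difference of 0.29. Of the 48 sites 20 were above in both KO libraries and 2 below, where all sites gave 14.6% and 14.3%, and 0 were called. The Osbp promoter, of a gene for an oxysterol-binding protein, had 825 and 934 in WT and 1201 and 1355 in KO (log2 difference 0.54 ± 0.09, SE), and Zfp91 had 819 and 776 against 1028 and 1102. The intergenic site 7.55 kb from Olfr1421-ps1 had 732 and 655 against 1109 and 955 (0.57 ± 0.10). The exonic site in Dtx4, 49.7 kb from Olfr1441, had 172 and 99 against 259 and 242. None of these reached 2-fold. The rest of chr19 also differed from other chromosomes: the mean over its other 2525 sites was 0.43 above WT in KO1 and -0.080 in KO2, while the cluster was 0.38 above in KO1 and 0.20 in KO2. In KO1 the cluster was thus no higher than the rest of its chromosome, and in KO2 it was.

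Domains of lower accessibility in KO were called where the mean difference over 25 consecutive sites was under -0.58, joined over gaps of at most 1 Mb. There were 167 of them, over 199 Mb, and they held 13 of the 1050 sites near receptor genes (1.24%) against 3.70% of all autosomal sites. They overlapped 16 of the 1960 receptor genes (0.816%), in 2 domains. Where a receptor array holds few sites, such as the 3 inside chr2 cluster 3, a window of 25 rests mostly on flanking sites. The gene count therefore does not show how such arrays behaved, and the share for other genes was not computed. The domain on chr4 (chr4:48754771-54878969, 6.12 Mb) contained the 6 genes from Olfr275 to Olfr270. It had a mean difference of -0.69 over 94 sites, with KO1 at -0.94 and KO2 at -0.44. The mean of WT1 minus WT2 there was -0.39, close in size to the difference of KO2. The domain on chr7 (chr7:6435438-7210259) contained 10 genes from Olfr1344 to Vmn2r-ps35 and had a mean of -1.04 over 16 sites, where KO1 was at -2.03 and KO2 at -0.052. The chr7 domain thus rested on KO1. Without KO1 the domains held 0 of the sites near receptor genes, on chr4 as on chr7, against 2.65% of all autosomal sites. Without KO2 they held 74 (7.05%, against 8.45% of all autosomal sites).

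The cells were checked through promoter sites, within 3 kb of a start, of genes listed for each cell type. Where a gene had several such sites, the values are those of 1 of them. All 11 fibroblast genes listed had a promoter site, from Vim (759 and 810 in WT, 977 and 919 in KO) to Thy1 (89 and 91 in WT, 51 and 84 in KO), with sums over the list of 3232 to 3766 per library. Of 11 genes of the olfactory sensory neuron, 7 had no promoter site, which were Gng13, Cnga2, Cnga4, Stoml3, Ano2, Rtp1 and Rtp2, and the sums were 269 to 377. Omp, which encodes the olfactory marker protein, had a site at 110 and 56 in WT and 98 and 69 in KO, and Gnal, for the G protein subunit of olfactory transduction, had 87 and 71 in WT and 45 and 48 in KO. Of the vomeronasal list Trpc2, the channel of vomeronasal transduction, was the 1 gene of 5 without a site, and Gng8, a G protein subunit gene, had 469 and 537 in WT and 519 and 574 in KO. Promoter sites were found for 3 of 3 epithelial, 3 of 3 endothelial and 1 of 3 leukocyte genes (Cd68, with none for Ptprc and Cd3e), with sums of 112 to 196, 181 to 227 and 152 to 215. The part of other cell types in any result was not tested.

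Genes that serve the receptors were examined in the same way. In the list of 18 transduction and trafficking genes 10 had a promoter site and 0 were called. In both KO libraries 3 were below and 2 above, where promoter sites far from receptor genes gave 14.5% and 16.9%. Reep1 had 90 and 61 in WT and 53 and 35 in KO. All 17 genes for receptor choice and silencing had a promoter site, 0 were called, 0 were below and 5 above, where 16.9% of promoter sites far from receptor genes were above. The counts for both lists are over genes and the shares are over sites of any strength, so the 2 are not like for like. Lhx2, a homeodomain factor needed for odorant receptor expression, had 190 and 272 in WT and 198 and 397 in KO; Kdm1a, a histone demethylase of receptor choice, had 252 and 212 against 247 and 220; Lbr, the lamin B receptor, had 444 and 437 against 453 and 466; and Setdb1, an H3K9 methyltransferase, had 111 and 129 against 121 and 125. Of 63 other chemoreceptor genes (trace amine, formyl peptide and taste receptors and Gucy2d) 58 had no promoter site, as most Olfr and Vmn genes had none. The 5 with a site were Taar7f, Taar9, Gucy2d, Tas1r1 and Tas2r126, and 0 of them were called or separated the genotypes.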

How the data were processed

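ATAC-Seq libraries of 4 imMEF lines were analysed. Per the labels and the methods of the study, the authors aligned reads to mm10 with BWA 0.7.12, called peaks with MACS2 2.1.0 and compared genotypes with DESeq2. The deposited values are scores: normalized read counts per merged region, rounded to whole numbers, for 82325 sites. Deposited columns of the authors' own comparison (log2 fold changes, p-values and adjusted p-values) were not used. Read filters, the treatment of reads with several matches and the Tn5 offset are not given in the sources used here. Values were analysed as log2(value + 1) with limma 3.58.1 (R 4.3.3; intensity trend, all 82325 sites, no low-value filter, Benjamini-Hochberg adjustment), tested on simulated data. This differs from the study's count model, which needs counts. Depths were estimated from the spacing of low values and are approximate. Genes came from GENCODE M21 and sequence from GRCm38, the build of the files; sequences are those of the reference. Replicate numbers follow accession order. P-values measure the spread between lines. The receptor rule, gene lists and tests were chosen with earlier results of these data known. Sites named were every called site; the 5 lowest and 5 highest differences among sites at or above the median value (52); the 8 strongest receptor sites; the 5 highest values; clusters of 10 or more sites; other sites named were chosen after their values were seen. Settings tried: a pseudocount of 8, equal totals, quantile normalization, sites at or above the median value, each library left out, and other rules for membership, clusters and domains.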

Additional observations from a re-analysis of the deposited data

How the results depend on the processing

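No paired analysis was possible because only WT1 and KO2 share a line number in their titles, and a block needs at least 2 shared numbers. The count called lower stayed at 3 with a pseudocount of 8, equal totals and quantile normalization and was 2 among sites at or above the median value; leaving out a library gave 0 to 9, with 0 without WT1 or WT2, 1 without KO1 and 9 without KO2, while over all sites the counts were 20, 14, 220 and 548. The count called higher was 0 in those 4 settings and 0 to 1 with a library left out. The median difference of 0.021 became -0.045 with equal totals, where the median of all sites was -0.061, and -0.024 to 0.073 with a library left out. Sites with both KO libraries below both WT libraries (149) and above (168) numbered 199 and 118 with equal totals. All sites moved likewise with equal totals (19.0% below and 10.9% above). Quantile normalization gave 154 and 125 (14.7% and 11.9%, against 14.5% and 13.1% of all sites). At or above the median value there were 53 and 122 of 567 (9.35% and 21.5%, against 10.2% and 19.6%). Within 25 kb there were 58 and 54 of 347 (16.7% and 15.6%). Without other genes' promoters there were 90 and 73 of 567 (15.9% and 12.9%), and inside cluster spans 63 and 74 of 451 (14.0% and 16.4%). Beside these sets, all sites of any kind gave 14.3% and 14.6%. The density fell from 13.6 to 6.50 sites per Mb within 25 kb. Sites in domains of lower accessibility (13) numbered 1 with a pseudocount of 8, 20 with equal totals, 6 with quantile normalization, 0 at or above the median value, 3 with windows of 51 sites, 0 with a cutoff of -1, and 0 to 74 with a library left out. Clusters below WT (1) numbered 4 with equal totals, 2 with quantile normalization, 0 at or above the median value and 2 with gaps of at most 0.25 Mb; clusters above (4) numbered 2 with equal totals and 6 at or above the median value. The Arhgef40 site near Olfr221 turned from -0.98 to 0.15 without KO1, and was -2.11 without KO2. The sets inside cluster spans and without repeated sequence were added after seeing the data. The number of lines, 2 per genotype, and the shallower KO libraries limit the precision, and what size of difference could be detected at weak receptor sites was not measured.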

Other observations

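At some receptor genes the libraries of 1 genotype differed more than the genotypes did; these stretches were chosen after their values were seen. From Vmn1r58 to Vmn1r63 on chr7 (chr7:5324211-5799777), 6 sites near V1R genes had WT1 and KO1 above both WT2 and KO2. The site over Vmn1r58 had 105 in WT1, 38 in WT2, 202 in KO1 and 26 in KO2, that over Vmn1r60 had 114, 19, 144 and 35, and that over Vmn1r61 had 77, 21, 116 and 38. At a site 2.57 kb from Vmn1r63 the values were 22, 9, 124 and 9. None of the 6 was called, and up to 5 of the 11 stretches of 32 bases read across a site recur elsewhere.

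The reverse order was found on chr9 (chr9:39515570-39604484), where 4 sites from Olfr957 to AW551984 had WT2 and KO2 above both WT1 and KO1. The site over Olfr957 had 7 in WT1, 55 in WT2, 10 in KO1 and 80 in KO2, and the AW551984 promoter had 13, 32, 6 and 35. None of these 4 was called or held sequence that recurs elsewhere in the stretches read. The source of these line differences was not tested.

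The site over Olfr702 on chr7 had 6 in WT1, 1 in WT2, 31 in KO1 and 2 in KO2, so its rise was that of KO1.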
